A study of Mus musculus with 6 samples.

Results

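The circadian clock genes examined here are Arntl (BMAL1), Clock, Per1, Per2, Per3, Cry1, Cry2, Nr1d1, Nr1d2 and Dbp. They were taken as the probe sets of the deposited array table whose platform symbol is exactly 1 of these names, which gave 166 probe sets for 10 genes, of 20416 genes with a value in all. A further 5 probe sets that carry the symbol of Per2, Nr1d1 or Nr1d2 together with another gene's were left out. The arrays hold RNA of C2C12 cells, a mouse myoblast line grown in 10% fetal bovine serum and fused to myotubes in 2% horse serum, used between days 4 and 7 of differentiation. The insulin group is 3 cultures kept in 100 nM insulin for 48 h, meant to bring on insulin resistance, and the control group is 3 untreated cultures. Medium was renewed every 24 h, and the cells carry no engineered allele. Replicates are described as biological, with no word on whether they were plated separately, so p-values measure the spread between these samples. Each culture was sampled once, and the hour of harvest is not given in the sources used here, so the level of a clock gene and its position in the daily cycle cannot be told apart. The line was 1 cultured cell population, and less RNA per cell cannot be told apart from fewer cells that hold it.

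The mammalian clock is a feedback loop of transcription. CLOCK and BMAL1 form a dimer that binds E-boxes and switches on the Per and Cry genes, whose proteins return to the nucleus and silence that dimer. The dimer also drives Nr1d1 and Nr1d2, whose products (REV-ERBα and REV-ERBβ) repress Arntl in a further loop, and Dbp, an output factor that binds D-boxes. In skeletal muscle this loop is known to time metabolic genes, among them genes of glucose use, and in cultured cells it can be reset by serum, hormones and fresh medium.

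The sequences below are shown because they carry the letters through which the loop is known to act, in the bases just before the annotated start of each gene. They come from RefSeq (GRCm38.p6), which gave 13 windows for 9 of the clock genes, with none searched for Per2, and the capitals mark every match on either strand within 250 bases before a start. The motifs searched were CACGTG (E-box), CACGTT (a noncanonical E-box), TTANGTAA (D-box), TAGGTCA and TGGGTCA (forms of the element bound by ROR and REV-ERB receptors). Ciart, a further repressor of the CLOCK and BMAL1 dimer, is added because its rise, given further on, was the largest among the other clock-loop genes, so its motifs are no evidence on that rise.
Per1, chr11:69098763-69098808, plus strand: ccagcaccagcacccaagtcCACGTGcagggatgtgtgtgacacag
Cry1, chr10:85185089-85185153, minus strand: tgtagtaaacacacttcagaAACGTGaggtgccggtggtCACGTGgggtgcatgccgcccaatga
Cry2, chr2:92434210-92434255, minus strand: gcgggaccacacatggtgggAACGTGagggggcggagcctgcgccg
Nr1d1, chr11:98775380-98775425, minus strand: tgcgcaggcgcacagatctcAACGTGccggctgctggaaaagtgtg
Per3, chr4:151044796-151044890, minus strand: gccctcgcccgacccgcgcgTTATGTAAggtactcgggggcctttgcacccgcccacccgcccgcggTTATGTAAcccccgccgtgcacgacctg
Ciart, chr3:95882247-95882364, minus strand: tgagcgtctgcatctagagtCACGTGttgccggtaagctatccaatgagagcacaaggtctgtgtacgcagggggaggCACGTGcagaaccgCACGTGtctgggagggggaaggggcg

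The E-box stood before 2 of the 9 clock genes (Per1 and Cry1), and 6.02% of all 32851 windows of the same length hold it. A gene counts here if any of its windows matched, while the shares are of single windows, so the measures are not alike. The noncanonical form stood before Cry1, Cry2 and Nr1d1, against 3.85% of all windows, and the D-box before Per3 alone, where it occurs 2 times, against 2.06%. The receptor element was not found in these windows of the 9 genes in its A form (2.23% of all windows) or its G form (3.24%). A match of letters is a description of the sequence and says nothing of binding in these cells.

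None of the 10 clock genes passed the test between insulin and control. The changes, insulin minus control, lay between -0.18 for Per3 and 0.14 for Clock on the log2 scale, with 4 above 0 and 6 below. By limma with Benjamini-Hochberg adjustment over 14291 tested genes, 0 of 10 clock genes passed an adjusted p of 0.05, beside 15.9% of all tested genes (9.56% higher and 6.35% lower). The smallest adjusted p was 0.229. At an unadjusted p under 0.05 the count was also 0 of 10, beside 29.9% of all tested genes. All 10 genes were brighter than the cut-off for dim genes, so none was left out of the test.

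The data limit how large a change could have been missed. The 95% intervals of the 10 fold changes (insulin over control, as ratios of RMA values) ran from 0.759-fold at the lowest, for Cry2, to 1.26-fold at the highest, for Clock. The median change was -0.070 on the log2 scale, beside -0.0028 over all tested genes. The median absolute change was 0.098, beside 0.12 over all tested genes, and the median standard error (SE) was 0.081, beside 0.083.

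**Figure D1:**
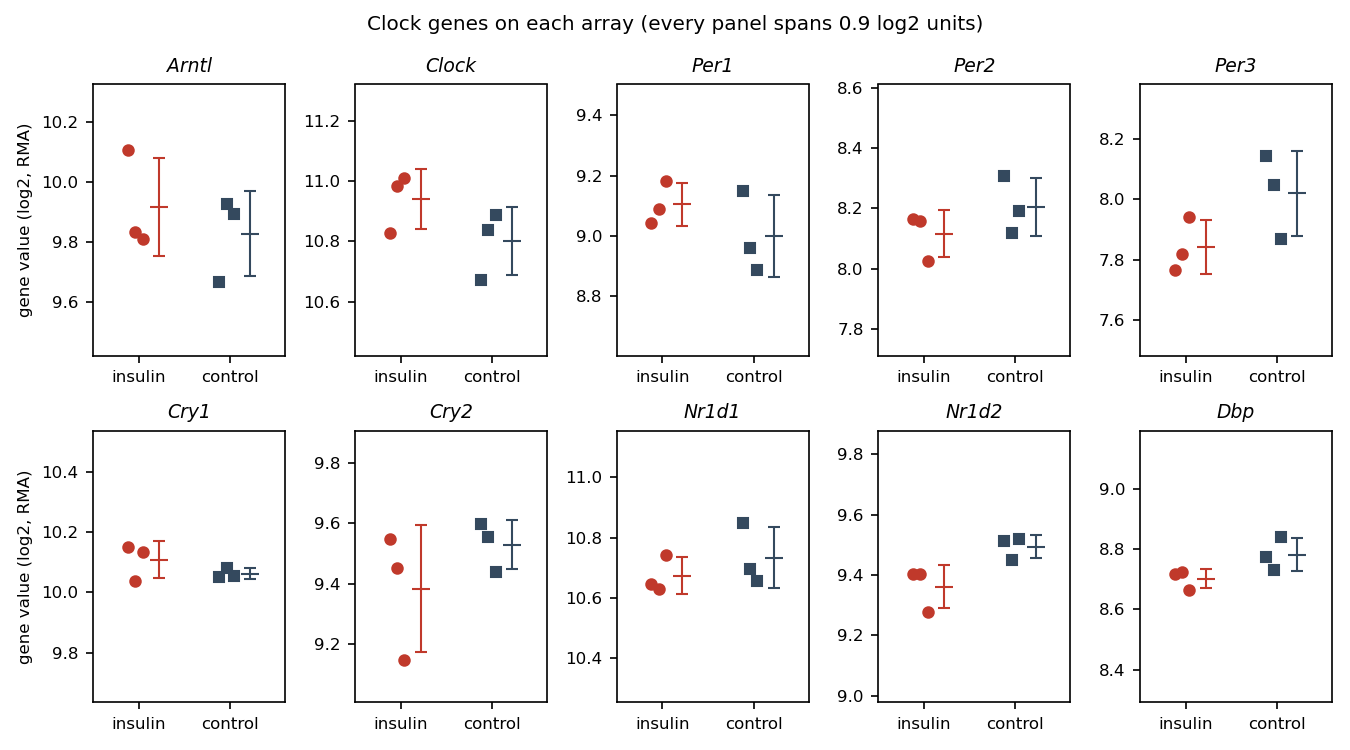
Gene values (log2, RMA) of the 10 clock genes, with a point for each array and the mean ± SD of 3 arrays beside the points, insulin left of control. The groups overlap in 8 of the 10 panels, and in Nr1d2 and Dbp the 3 insulin points lie below the 3 control points.

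The activators of the loop are Arntl and Clock. Arntl encodes BMAL1, the subunit whose RNA cycles in most tissues, and its value was 10.11, 9.83 and 9.81 on the insulin arrays and 9.67, 9.93 and 9.89 on the control arrays. Insulin 1 was the highest of the 6 and control 1 the lowest, and insulin 2 and 3 lay below control 2 and 3. The change was 0.088 ± 0.105 (SE; limma adjusted p = 0.630), and without insulin 1 it was -0.0057. With the brightest probe set of Arntl it was 0.22 and did not pass (limma adjusted p = 0.0787). Clock, the partner of BMAL1 and a histone acetyltransferase, was at 10.83, 10.98 and 11.01 after insulin and at 10.67, 10.84 and 10.89 in controls. The groups overlapped, since insulin 1 lay below control 2 and control 3. Its change of 0.14 ± 0.08 was the highest of the 10 genes (adjusted p = 0.318). The change of Clock was 0.017 with its brightest probe set and 0.083 with the mean of its probe sets.

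Per1, Per2 and Per3 encode the PERIOD proteins, which form the repressing complex with the cryptochromes. Per1, the member known to respond fastest to resetting signals, was at 9.04, 9.09 and 9.18 on insulin arrays and at 9.15, 8.96 and 8.89 on control arrays. Control 1 lay within the insulin range and the other 2 controls below it. The change was 0.11 ± 0.09 (SE; limma adjusted p = 0.455), but -0.29 with the brightest probe set of the gene.

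Per2, which is needed for a stable rhythm in mice, was at 8.17, 8.16 and 8.03 after insulin and at 8.31, 8.12 and 8.19 in controls. The lowest value was that of insulin 3 and the highest that of control 1, and the groups overlapped. Its change was -0.089 ± 0.077 (SE; limma adjusted p = 0.495).

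Per3, regarded as the least essential PERIOD gene for the rhythm itself, was at 7.76, 7.82 and 7.94 on insulin arrays and at 8.14, 8.05 and 7.87 on control arrays. Control 3 fell within the insulin range, and the other controls lay above it. The change of -0.18 ± 0.09 (SE) was the lowest of the 10 and did not pass (limma adjusted p = 0.229). With array quality weights, which give noisier arrays less say, Per3 was called lower (change -0.20, limma adjusted p = 0.0341). Under those weights 5007 of the 14291 tested genes passed, beside 2274 in the main fit. Over the alternative settings that tested it, the limma adjusted p of Per3 ran from 0.0341 to 0.466. Its call with array weights was the only one made for any of the 10 genes under any setting tried.

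Cry1 and Cry2 encode the cryptochromes, the strongest repressors of CLOCK and BMAL1. Cry1 was at 10.15, 10.04 and 10.13 after insulin and at 10.05, 10.08 and 10.05 in controls. Its control SD of 0.017 was the smallest of the 10 genes. On control arrays the value was the mean of 2 middle probe sets, at 10.06, 10.02 and 9.94 and at 10.04, 10.14 and 10.17. These 2 moved in opposite directions over the control arrays. The change was 0.047 ± 0.064 (SE; limma adjusted p = 0.678), and it lay below 0 with the mean of the probe sets (-0.044) or the brightest one (-0.049). Cry2 was at 9.55, 9.45 and 9.15 on insulin arrays and at 9.60, 9.55 and 9.44 on control arrays. Insulin 3 stood apart at the low end and gave the insulin group the largest SD of the 10 genes, 0.21. The change was -0.15 ± 0.11 (adjusted p = 0.419), and -0.028 without insulin 3. Over all its alternatives the change of Cry2 ran from -0.23 to -0.028, and it was called under none.

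Nr1d1 and Nr1d2 encode the nuclear receptors REV-ERBα and REV-ERBβ, heme-binding repressors that also act on lipid and mitochondrial genes. Nr1d1 was at 10.65, 10.63 and 10.74 after insulin and at 10.85, 10.70 and 10.66 in controls. The groups overlapped, with control 1 the highest of the 6 arrays. Its change was -0.060 ± 0.076 (SE; limma adjusted p = 0.647).

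Nr1d2 was at 9.40, 9.40 and 9.28 on insulin arrays and at 9.51, 9.45 and 9.52 on control arrays. All 3 insulin values lay below all 3 controls, but the middle probe set was one on the insulin arrays and another on the control arrays, whose own changes were -0.30 and -0.42. The change of the gene value was -0.13 ± 0.07 (SE) and did not pass (limma adjusted p = 0.230). Groups without overlap occurred in 2 of the 10 clock genes, beside 35.7% of all tested genes.

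Dbp encodes a PAR bZIP factor, the output of the loop whose RNA swings most in many tissues. It was the other gene without overlap, at 8.72, 8.72 and 8.67 after insulin against 8.77, 8.73 and 8.84 in controls. The gap between the groups was small, with insulin 2 at 8.724 and control 2 at 8.731. Dbp had 7 probe sets, and its value on every array was that of the same middle one. The change was -0.079 ± 0.064 (SE; limma adjusted p = 0.460), with a 95% interval from -0.23 to 0.068, and it was 0.051 with the brightest probe set.

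**Figure D2:**
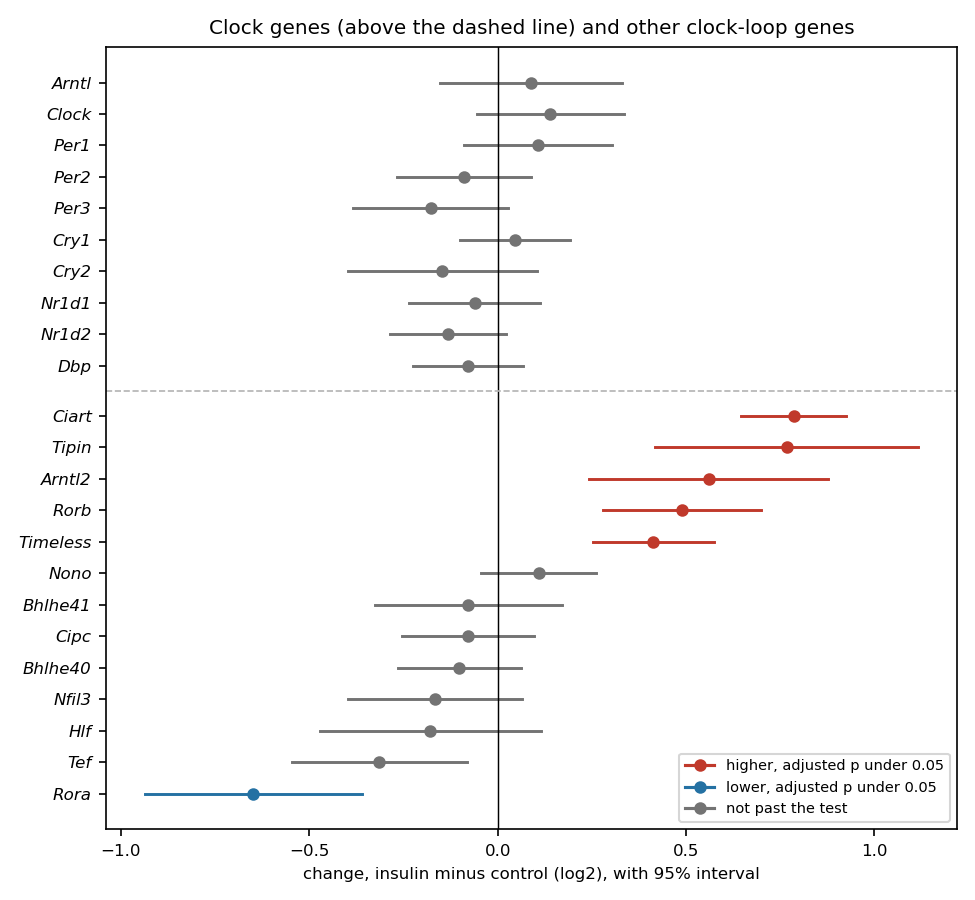
Change, insulin minus control (log2), with its 95% interval for the 10 clock genes above the dashed line and the 13 tested other clock-loop genes below it, coloured by the limma call. The intervals of all 10 clock genes include 0, while 5 genes of the lower block lie to the right of 0 and are called higher and Rora is called lower.

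The difference between paralogs was compared array by array. Per1 minus Per3 was 1.28, 1.27 and 1.24 on insulin arrays and 1.01, 0.91 and 1.02 on control arrays, a difference of 0.28 on the log2 scale between the groups. All 3 insulin values lay above all 3 controls. Per1 minus Per2 also separated the groups, with 0.88, 0.93 and 1.16 after insulin and 0.84, 0.84 and 0.70 in controls, a difference of 0.20. In both cases the exact two-sided permutation test gave p = 0.1, the smallest that 3 against 3 arrays allow, and p = 0.25 adjusted over the 5 pairs, so neither can pass.

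These differences in the PERIOD genes depended on the probe sets, since with only the brightest probe sets they were -0.13 for Per1 minus Per3 and -0.17 for Per1 minus Per2. Cry1 minus Cry2 differed by 0.19 between the groups (exact permutation p = 0.3) and Nr1d1 minus Nr1d2 by 0.073 (exact permutation p = 0.7), with overlapping arrays in both. Per2 minus Per3 differed by 0.089 (exact permutation p = 0.5).

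Most of the clock genes were covered by many probe sets, which target separate stretches of a transcript and share the RNA of an array. Of the 166 probe sets 144 passed the filter on dim values, and 0 of these passed limma's test at an adjusted p of 0.05 over all 148468 probe sets, beside 5.66% of all. The smallest adjusted p among them was 0.0582, for a probe set of Nr1d2 at 9.25, 8.99 and 8.997 after insulin and 9.51, 9.45 and 9.52 in controls.

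Within some genes the probe sets leaned one way. For Cry2 11 of 12 had a change below 0, for Nr1d1 7 of 8 and for Per3 18 of 23, while for Clock 16 of 25 and for Arntl 16 of 22 lay above 0. Per1 was split, with 14 above and 13 below. In Arntl the probe set with the lowest change, -0.72, was at 9.52, 7.61 and 8.01 on insulin arrays and at 8.94, 9.12 and 9.24 on control arrays, and the next lowest, -0.62, at 10.51, 10.27 and 10.12 against 11.23, 10.30 and 11.24. In each of these the groups overlapped, and the remaining 20 Arntl probe sets lay between -0.13 and 0.38. The widest departures in the PERIOD genes, 0.99 in Per1 and -1.06 in Per3, came from probe sets under the filter on dim values.

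**Figure D3:**
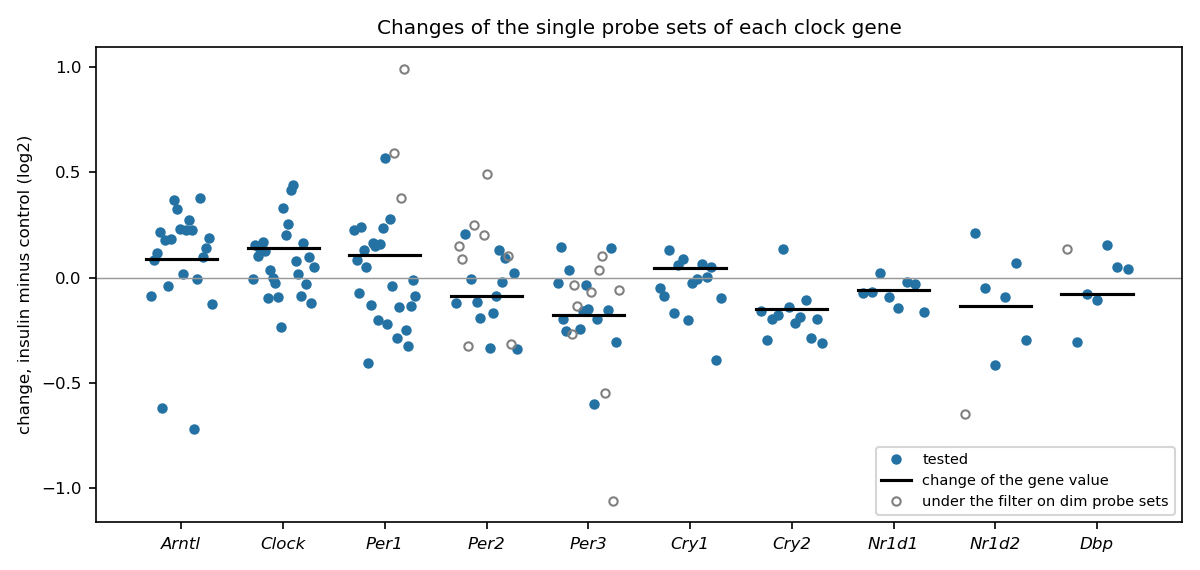
Change, insulin minus control (log2), of each of the 166 probe sets, by clock gene, with filled points for the 144 tested ones, open points for those under the filter on dim values and a bar for the change of the gene value. The probe sets of Cry2, Nr1d1 and Per3 lie mostly below 0, and the widest points belong to Per1 and Per3 and are open.

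No array was high for all the clock genes. Control 1 was the highest of the 6 arrays for 4 of the 10 genes and the lowest for 2, and insulin 3 was the lowest for 4 and the highest for 2. The median over the 10 genes of the value minus the gene's mean lay between -0.026 and -0.016 on insulin arrays and between -0.0056 and 0.092 on control arrays, with control 1 at the high end. Without control 1 the median change of the 10 genes was -0.020.

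The genes whose pattern over the 6 arrays lay nearest to 3 of the clock genes were found by the root mean square (RMS) difference of gene-centred log2 values among 14290 other genes. Nearest to Arntl were Gphn (RMS 0.030), Rcbtb1 (0.040) and Wbp4 (0.041), where the spread of Arntl itself was 0.13. Nearest to Dbp were Gm16287 (0.012), Cul9 (0.017) and Psmb4 (0.021), and nearest to Nr1d1 were Tecr (0.019), Grb2 (0.019) and Gdf6 (0.020). None of these 9 genes passed limma's test, and no other clock gene was among them.

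Markers of myotubes were bright on all arrays, and markers of cell state differed between the groups. All 12 myotube markers were tested, with gene means from 10.0 to 14.1 on the log2 scale. Of these 4 fell (Myog, Ckm, Actn2 and Myl1), none rose and 8 did not pass, beside 6.35% lower of all tested genes. The mean over the list lay between 12.3 and 12.4 on insulin arrays and between 12.5 and 12.8 on control arrays. Of 6 tested myoblast or cycling markers 5 rose (Myf5, Mki67, Ccna2, Top2a and Cdk1), beside 9.56% higher of all tested genes, with list means from 10.6 to 10.7 after insulin and from 10.2 to 10.3 in controls. Pax7 did not pass. Of 9 adipocyte, endothelial and macrophage markers 3 passed the filter on dim genes and none passed the test, of 4 fibroblast markers Dcn fell, and of 3 neuron markers Tubb3 rose. The part of the shift from muscle to cycling markers in any clock result was not tested.

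Some genes that act on the loop from outside its core passed the test. Of 15 other clock-loop genes 13 were tested, and 5 rose, 1 fell and 7 did not pass (limma, adjusted over all tested genes), beside 9.56% higher and 6.35% lower of all tested genes. The median change was -0.077. Leaving out each array in turn left between 4 and 6 calls.

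Ciart (platform symbol Gm129), which binds BMAL1 and represses the loop, had the largest rise of the list. It was at 8.94, 8.91 and 8.97 on insulin arrays and at 8.15, 8.19 and 8.12 on control arrays. The groups lay far apart for the spread within them, with a change of 0.79 ± 0.06 (SE; limma adjusted p = 3.89e-04), or 1.72-fold. It passed under all 16 alternatives run on this list. Of its 4 probe sets 3 were called higher and the other had a difference of 0.15 that did not pass. Among the 3 called, 1 carries an ID far from the run of the rest, and whether it targets Ciart could not be checked. It was the brightest of the 4, with a change of 1.12, so the alternative with the brightest probe set rests on it alone. Without that probe set, a choice made after seeing the data, the change was 0.88.

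Rora and Rorb encode receptors that activate Arntl through the element where REV-ERB represses it, and they moved in opposite directions. Rora was at 9.19, 8.73 and 8.97 after insulin and at 9.53, 9.52 and 9.78 in controls, and fell by 0.65 ± 0.13 (SE; limma adjusted p = 0.0123). Rorb was at 9.40, 9.17 and 9.37 on insulin arrays and at 8.88, 8.69 and 8.91 on control arrays, and rose by 0.49 ± 0.09 (adjusted p = 0.0107). In both the arrays of the groups did not overlap, and both missed the threshold without insulin 3 (adjusted p = 0.0514 each).

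Arntl2, a paralog of Arntl whose product can also pair with CLOCK, rose by 0.56 ± 0.14 (SE; limma adjusted p = 0.0295), with 7.75, 7.89 and 7.40 after insulin and 6.96, 7.31 and 7.10 in controls. This call held under 8 of 15 alternatives, and with the setting that gave the lowest change it lay at 0.032. Timeless and Tipin, best known in mammals for guarding replication forks, rose by 0.41 ± 0.07 (adjusted p = 0.00736) and 0.77 ± 0.15 (adjusted p = 0.0134). Tipin was at -0.13 with its brightest probe set. Cell cycle markers moved the same way on these arrays, as given above, and their part in these rises was not tested.

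The other 7 tested genes of the list did not pass. They include Bhlhe40 (change -0.10), a repressor that competes at E-boxes, and Nono (0.11), an RNA-binding partner of the PERIOD proteins. Among genes named after their values were seen, Tef, a PAR bZIP relative of Dbp, was at 10.39, 10.09 and 10.27 after insulin and at 10.58, 10.43 and 10.70 in controls (change -0.31, limma adjusted p = 0.0731). Npas2, which can stand in for CLOCK, had a mean under the filter and was not tested in the fit reported here. Its values were 6.48, 6.59 and 6.63 on insulin arrays and 6.92, 7.01 and 6.83 on control arrays, and it passed with no filter on dim genes (change -0.35, adjusted p = 0.0350).

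Enzymes that mark clock proteins for activity or decay were mixed. Of 24 tested kinases, ubiquitin ligases and other modifiers 5 fell, 2 rose and 17 did not pass, beside 6.35% lower and 9.56% higher of all tested genes, and the median change was -0.058. Btrc, the β-TrCP ligase subunit that targets PERIOD proteins, was at 10.45, 10.52 and 10.48 after insulin and at 10.86, 10.80 and 10.85 in controls. It fell by 0.35 ± 0.06 (SE; limma adjusted p = 0.00795), and Fbxw7, a ligase subunit known to target REV-ERBα, fell by 0.35 ± 0.07. Btrc lost its call with the brightest or the brighter probe sets, where its change was as small as -0.13, and Fbxw7 kept its call under 13 of 16 alternatives.

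Csnk1e, the casein kinase 1 epsilon that phosphorylates PERIOD proteins, fell by 0.27, Prkaa2, the AMPK subunit whose kinase marks CRY1 for decay, by 0.27 and the deubiquitinase gene Usp2 by 0.32. The rises were in Gsk3a (0.24) and the deubiquitinase gene Usp7 (0.29), each kept under 4 of 16 alternatives. The bright genes Csnk2b (0.033) and Ppp1ca (-0.0068) did not pass. Csnk1e kept its call under 7 of 16 alternatives, Usp2 under 8 and Prkaa2 under 10. The count of calls on this list was 1 without insulin 1, 2 without insulin 2, 1 without insulin 3, 4 without control 1 and 1 without control 2.

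Genes known to cycle in many tissues or in muscle also went both ways. Of 26 tested, 6 fell, 2 rose and 18 did not pass, beside 6.35% lower and 9.56% higher of all tested genes. The median change was -0.10, and the share that rose was no more than that of all genes. Nampt, which makes NAD from nicotinamide and is a direct target of CLOCK and BMAL1, was at 10.70, 10.65 and 10.69 after insulin and at 9.91, 10.02 and 10.13 in controls. It rose by 0.66 ± 0.07 (SE; limma adjusted p = 0.00174), and Leo1, a subunit of an elongation complex, rose by 0.29, a call kept under 5 of 16 alternatives.

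The falls included muscle genes with a known daily rhythm. Fbxo32 (atrogin-1, a ubiquitin ligase) was at 10.06, 9.87 and 9.98 on insulin arrays and at 11.05, 10.98 and 10.87 on control arrays, a 0.5-fold level. Tcap (telethonin) fell by 0.70, Pdk4, a kinase that restrains pyruvate dehydrogenase, by 0.65, Myod1, the myogenic factor, by 0.57, and Pdp1, the phosphatase that opposes Pdk4, by 0.52. Fbxo32, Tcap and Pdk4 kept their calls under all 16 alternatives, Myod1 under 15 and Pdp1 under 14. Usp2 stands on this list too. Cdkn1a (-0.093) and Por (0.017) were the brightest that did not pass.

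Serum, cAMP and glucocorticoid response genes that accompany resetting of cultured cells were mostly lower where they passed. Of 21 tested, 6 fell, 2 rose and 13 did not pass, beside 6.35% lower and 9.56% higher of all tested genes, with a median change of -0.13. Egr2 was at 10.42, 10.49 and 10.37 after insulin and at 11.24, 11.23 and 11.28 in controls, and fell by 0.82 ± 0.07 (SE; limma adjusted p = 4.00e-04). The phosphatase gene Dusp1 fell by 0.55, the kinase gene Sik1, a brake on resetting by light in the mouse brain, by 0.48, the nuclear receptor gene Nr4a1 by 0.40, Egr1 by 0.38 and Junb by 0.33. Egr1 kept its call under 9 of 16 alternatives, Junb under 12 and Nr4a1 under 14.

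Fosl1 and Atf3 rose, by 0.79 ± 0.09 and 0.75 ± 0.10 (SE). Klf10 (-0.21) and Hsf1 (-0.046), the brightest of those that did not pass, lay below 0. The count of calls on this list was 5 without insulin 2 and 5 without insulin 3.

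**Figure D4:**
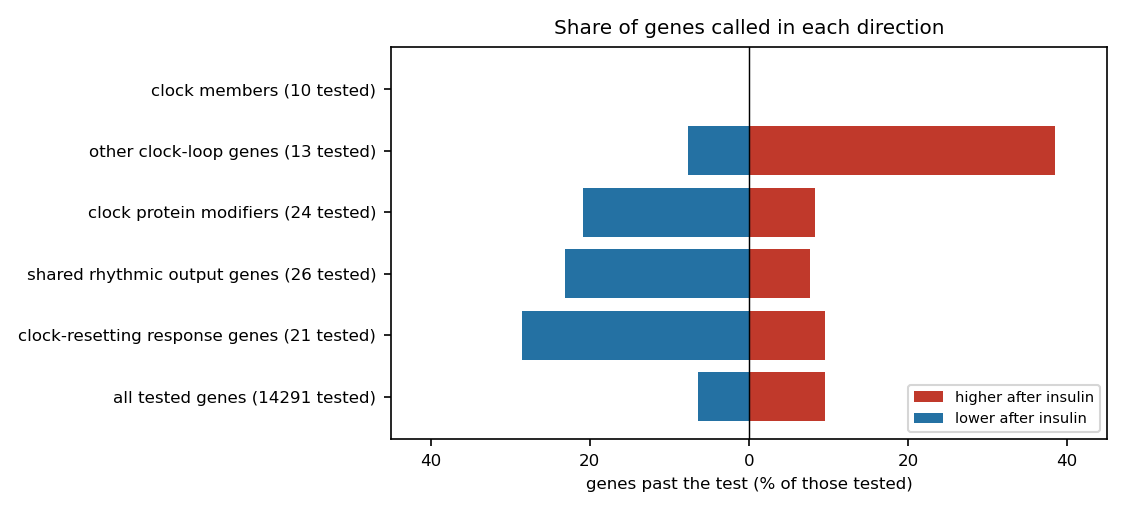
Share of tested genes past limma's test (% of those tested), higher to the right and lower to the left, for the 10 clock genes, the 4 other lists and all 14291 tested genes. The clock genes have no bar, and the other clock-loop genes lean to the right while the remaining 3 lists lean to the left.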

How the data were processed

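RNA of 6 C2C12 cultures was measured, 3 arrays per group, from 25 ng of amplified RNA per the labels' protocols. The table the authors deposited holds log2 values by probe set; the submitters' processing notes name RMA without a version. That the base is 2 follows from the range alone (3.15 to 14.6), and array medians lay between 8.79 and 8.82. Names came from the platform annotation in GEO, with older symbols, and were matched to present symbols through RefSeq synonyms. Of 241576 probe sets 212097 had exactly 1 symbol.

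For each array, probe sets of 1 gene were summarised by their median. Genes with a mean under the 30th percentile (7.05) were left out, and limma 3.58.1 in R 4.3.3 (two-sided tests from lmFit and eBayes) gave insulin minus control over 14291 genes, with Benjamini-Hochberg adjustment. Probe sets were fitted likewise, above 7.57. RMA equalizes arrays, so changes are relative to other transcripts, and the number of arrays limits precision. No scan batch was known. On simulated data with 14291 genes, 70 carried a change of 0.5 and 67 a change of 1 on the log2 scale. The fit called 52.9% and 97.0% of these. Far fewer genes carried a change than passed on the real arrays, so these rates need not hold there. Changes as small as those of the clock genes were not simulated.

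The clock genes and the other lists were chosen with earlier results of these data known, and no list was tested as a set. The text names all 10 clock genes; from each other list the genes past the test (at most 8) and the 2 brightest not past it; and the 3 genes nearest to Arntl, Dbp and Nr1d1. Genes outside this rule are said to be. Paralog differences used the exact permutation test (scipy 1.17.1). Same-numbered replicates were checked for pairing by correlating deviations from the group means. These correlated at 0.025, 0.19 and -0.00036 for numbers 1, 2 and 3, and between unlike numbers at -0.10 to 0.069. Number 2 stood highest, and 3 replicates are too few for this check to settle pairing.

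Alternatives were a block for the replicate number, a repeat of quantile normalization, median centring, no filter or one at the 50th percentile, a trended robust prior, array weights, the mean, brightest or brighter probe sets, and leaving out each array.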

Additional observations from a re-analysis of the deposited data

How the results depend on the processing

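The count of 0 clock genes past limma's test held under 15 of 16 alternatives and was 1 with array weights, where Per3 was called lower (-0.20). Of 168 values of single clock genes under the alternatives 158 kept their direction and, where tested, their side of the threshold. A further 9 turned their direction. These 168 include the median change of each gene's tested probe sets, which was compared by direction only, with no test. Arntl turned without insulin 1 (-0.0057) and Dbp with its brightest probe set (0.051). Per1 turned with its brightest probe set (-0.29), its brighter ones (-0.17) or the median of its tested ones (-0.027). Cry1 turned with its brightest (-0.049), mean (-0.044) or brighter (-0.0036) probe sets, or the median of its tested ones (-0.016). Of the turned values that were tested, none passed. With the replicate number as a block, 0 clock genes, 7 other clock-loop genes, 5 modifiers, 8 rhythmic output genes, 7 resetting genes and 1970 genes in all passed, and no count moved by over 1.5 times.
The count over all genes was 5007 with array weights (2608 higher, 2399 lower), 3436 with the mean of probe sets, and between 1045 (without insulin 2) and 2449 (without control 3) when each array was left out in turn; it was 1111 without insulin 3, 1234 without control 2 and 1268 without insulin 1. The count of modifiers was 3 with no filter on dim genes, 3 with the brighter probe sets, 1 with the brightest and between 1 and 6 without each array. The count of rhythmic output genes was 5 with the brightest probe set and that of resetting genes between 5 and 8 without each array. The median change of the clock genes was -0.0069 with the filter at the 50th percentile, which drops Per2 and Per3, -0.020 with array weights, -0.030 with the mean of probe sets and between -0.092 and -0.020 without each array. Arntl ran from -0.0057 to 0.14 without each array. With the brightest probe set Per1 minus Per2 was -0.17 and Per1 minus Per3 -0.13. The causes of these shifts were not tested.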
